A study of Homo sapiens with 6 samples.

Results

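Collagens are the proteins that give the extracellular matrix its tensile strength, and the genes that encode their chains were followed here across control and ELK3-manipulated breast cancer cells. The members are all gene symbols made of COL, digits, A and digits, with pseudogenes and antisense symbols left out, which gave 44 of the 24462 symbols in the count files. By the structures their products form, 11 are fibrillar, 6 belong to basement membranes (type IV), 10 are FACIT collagens, which attach to fibrils, and 4 are transmembrane. The other genes are 5 of type VI (beaded filaments), 3 of short-chain networks, 2 multiplexins, 1 of anchoring fibrils and 2 that fall in none of these.

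The 6 RNA-seq libraries, all labelled as the triple-negative breast cancer line MDA-MB-231, form 3 groups of 2 replicates. Control cells carry a control retrovirus, and no plasmid dose or time is recorded for them. The other groups are labelled as a stable ELK3 knockdown by a retroviral shRNA, collected 48 hours after transfection with 1 µg of pLenti-cMyc-DDK (called vector-labelled libraries here) or of pLenti-cMyc-DDK-ELK3 (ELK3-labelled libraries). The labels do not say whether a line is 1 clone or whether replicates are separate cultures, so p-values may measure technical spread only. Contrasts with the controls mix the labelled knockdown with plasmid transfection.

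ELK3, the ETS-family transcription factor that was targeted, had 129 and 124 CPM (counts relative to library size, after TMM scaling) in the controls, 759 and 697 CPM in the vector-labelled and 20.4 and 22.6 CPM in the ELK3-labelled libraries. It thus ran against the labels, being highest where a knockdown with control vector is labelled and lowest where re-expression is labelled (2.53 ± 0.09 and -2.54 ± 0.11 on the log2 scale against controls, adjusted p = 1.60e-22 and 3.53e-20 by the quasi-likelihood test of edgeR used throughout). The headers of the count columns also disagree with the labels, with KD+E on the vector-labelled and KD on the ELK3-labelled libraries. Every direction below follows the labels as deposited and not the ELK3 level. Library totals ran from 4884483 to 9131214 counts, and collagen genes took 0.0576% to 0.083% of them. Markers listed for MDA-MB-231 cells were lower in both plasmid groups than in the controls (14 of 14 in each comparison, summed level 6145 to 6292 CPM in controls and 876.5 to 965 CPM elsewhere). Of 10 markers listed for HEK293 cells, an embryonic kidney line, 9 were tested, and all 9 were higher in both comparisons (summed level 40.4 to 46.2 CPM in controls, 308 to 327 CPM in vector-labelled and 733 to 744 CPM in ELK3-labelled libraries). Of all genes, 37% were higher and 35.3% lower in vector-labelled libraries, and 31.8% and 30.8% in ELK3-labelled ones. The marker lists were chosen with earlier results of these data known. Some HEK293 markers, such as FGF9 (2 and 1 counts in controls) and KIF1A (1 and 1), passed the filter on low counts only through plasmid libraries, so their rise is partly set by it. In the comparisons with controls, the labelled treatment and a difference between cell lines cannot be told apart for any collagen below. Liver genes such as ALB were present in every library (9 genes, 7227 to 9572 CPM summed).

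Collagen chains wind into triple helices inside the secretory pathway, after hydroxylases and chaperones have acted on them, and are exported, trimmed and cross-linked outside the cell. Type IV collagen forms the sheet under epithelia and vessels, fibrillar types I, III and V form the fibrils of stroma, and the transmembrane types sit in the membrane of the cell that makes them. Carcinoma cells usually make basement membrane collagens, whereas the fibrillar collagens of a breast tumour come largely from fibroblasts. ELK3 acts with SRF on promoters that carry ETS and CArG sequences.

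Of the 44 genes, 33 passed the filter on low counts, which asks for 1.81 CPM in at least 2 libraries, and could be tested. Among these, 15 reached that level in all 6 libraries and 8 reached it in 1 group only (6 in the vector-labelled libraries, 2 in the controls). A gene of the latter kind passed because it was high in that group. COL11A1, COL11A2, COL14A1, COL25A1, COL26A1, COL4A4, COL4A6, COL5A2 and COL9A2 reached that level in libraries of both plasmid groups but in no control library. For these genes a rise over the controls is partly set by the filter, so counts over the 33 describe the genes tested and support nothing. Between vector-labelled libraries and controls, 22 collagens rose, 9 fell and 2 were not called, where 72.3% of the 15386 genes tested were called, 37% higher and 35.3% lower (median log2 fold change 1.57, against 0.05 over all genes). Among the 15 genes at the filter level in every library, 8 rose, 6 fell and 1 was not called. Between ELK3-labelled libraries and controls, 15 were higher, 9 lower and 9 not called, where 62.6% of all genes were called, 31.8% higher and 30.8% lower (median 1.07, or 0.95 with COL10A1 at its bound, against 0.02). Among the same 15, 7 were higher, 6 lower and 2 not called. Both comparisons use the same control libraries.

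Between the plasmid groups, 3 collagens were higher in the ELK3-labelled libraries, 13 were lower and 17 were not called, where 59.6% of all genes were called, 30% higher and 29.6% lower (median -0.39, against -0.02). Among the 15 genes at the filter level in every library, 3 were higher, 4 lower and 8 not called. The 13 include COL10A1, COL19A1, COL24A1, COL28A1 and COL9A1, which passed the filter through the vector-labelled libraries. The counts over the 33 were 1 higher and 7 lower without ELK3-labelled replicate 2, and 2 higher and 6 lower with DESeq2. In that comparison 7 of 9 tested HEK293 markers were higher and 0 lower (median 1.02, with 5 over 2-fold), the 9 liver genes were all lower (median -0.32), and 4 of 8 tested lymphocyte genes were lower. Their part in the collagen differences was not tested. The plot of levels by library shows the separation of the groups gene by gene, and the plot of fitted differences shows the sizes and errors.

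**Figure D1:**
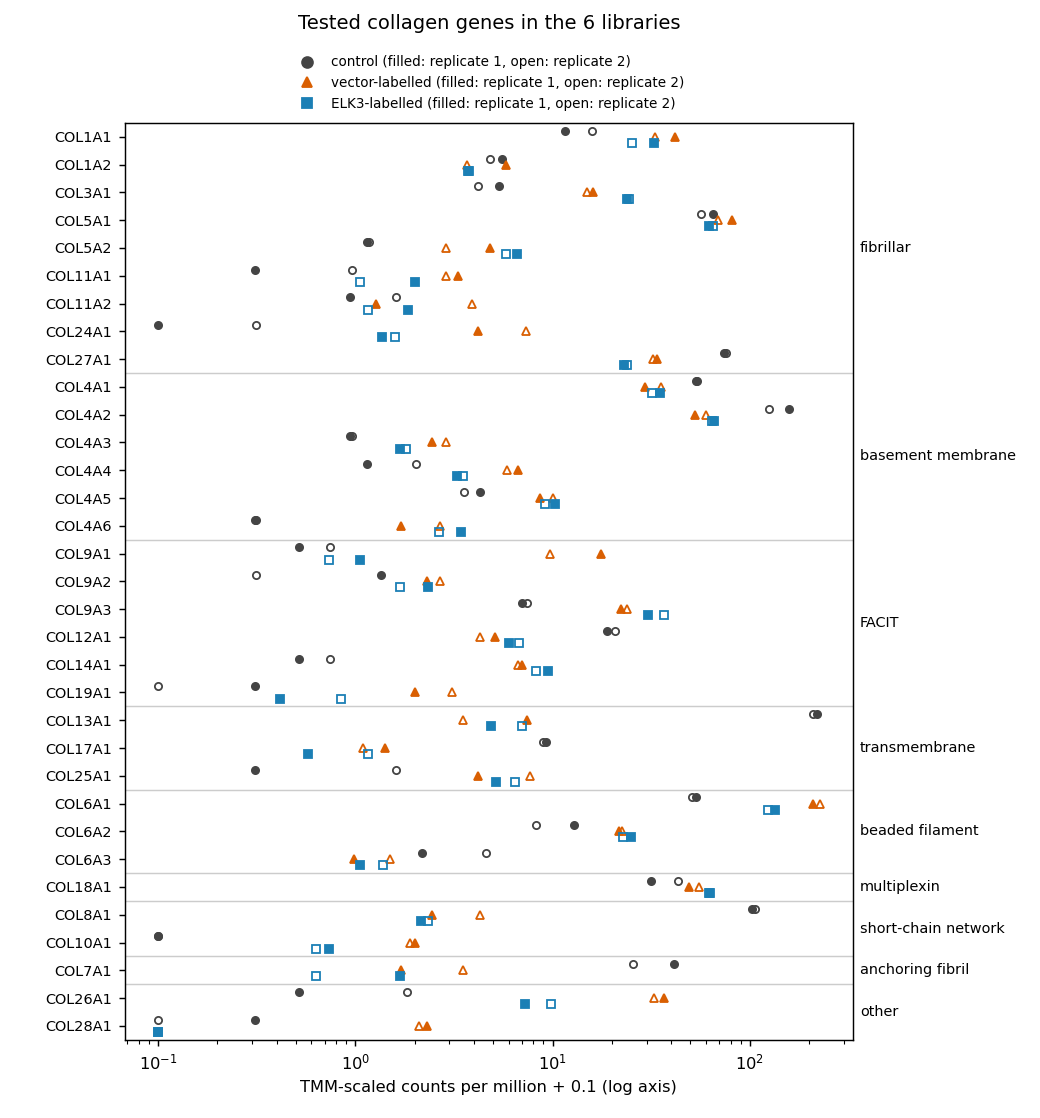
Each row is 1 of the 33 tested collagen genes, grouped by type, and each point is 1 library on a log axis of TMM-scaled CPM plus 0.1. COL13A1 and COL8A1 lie at 102 to 218 CPM in the controls and at 2.07 to 7.34 CPM in the other 4 libraries, while COL6A1 lies highest in the vector-labelled libraries.

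Of 4 transmembrane genes 3 were tested, and in each comparison with controls 1 rose and 2 fell. Of all genes, 37% were higher and 35.3% lower in vector-labelled libraries, and 31.8% higher and 30.8% lower in ELK3-labelled ones. COL13A1 encodes a transmembrane collagen of cell adhesion sites and lies on chromosome 10 from 69801867 to 69964275 (plus strand, GENCODE 29 on GRCh38). It had 218 and 208 CPM in the controls, 7.34 and 3.40 CPM in the vector-labelled and 4.77 and 6.91 CPM in the ELK3-labelled libraries. Both plasmid groups lay far below the controls (-5.23 ± 0.16 and -5.14 ± 0.15 on the log2 scale, adjusted p = 2.25e-23 and 6.42e-24), and they overlapped each other (0.09 ± 0.26, adjusted p = 0.777). COL8A1, a short-chain collagen of vessel walls and of the matrix under the corneal endothelium, had 102 and 107 CPM in the controls, 2.35 and 4.20 CPM in the vector-labelled and 2.07 and 2.23 CPM in the ELK3-labelled libraries. All 4 plasmid libraries lay below both controls (-5.05 ± 0.19 and -5.58 ± 0.19, adjusted p = 4.65e-22 and 3.34e-23). COL7A1, the anchoring fibril collagen that ties the epidermal basement membrane to the dermis, had 41.2 and 25.4 CPM in controls, 1.62 and 3.40 CPM in vector-labelled and 1.59 and 0.532 CPM in ELK3-labelled libraries. It was lower in both plasmid groups (-3.79 ± 0.31, adjusted p = 9.78e-12, and -5.09 ± 0.34, adjusted p = 2.51e-13). COL17A1, the hemidesmosome collagen of basal epithelial cells, went from 9.20 and 8.82 CPM in controls to 1.32 and 1.00 CPM in vector-labelled and 0.477 and 1.06 CPM in ELK3-labelled libraries (-2.91 ± 0.41 and -3.42 ± 0.41). COL17A1 passed the filter through the controls, and its plasmid groups overlapped. The second of these differences was -4.18 without ELK3-labelled replicate 2. Without vector-labelled replicate 1, COL13A1 was at -5.97 in the vector-labelled libraries. The COL7A1 difference between ELK3-labelled libraries and controls was -5.92 without ELK3-labelled replicate 1 and -4.37 without ELK3-labelled replicate 2.

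The remaining transmembrane genes went the other way or were barely present. COL25A1, a transmembrane collagen known from neurons and motor nerve endings, had 0.209 and 1.51 CPM in the controls, 4.11 and 7.60 CPM in vector-labelled and 5.09 and 6.38 CPM in ELK3-labelled libraries. Both plasmid groups were above the controls (2.71 ± 0.53, adjusted p = 2.78e-05, and 2.75 ± 0.51, adjusted p = 1.95e-05) and overlapped each other. COL25A1 passed the filter through the plasmid groups, with no control library at that level. Without control replicate 1 the differences were 1.88 and 1.93, and without control replicate 2 they were 4.62 and 4.67. COL23A1 had 1 to 10 counts per library and was not tested. The gene of cartilage growth plates, COL10A1, had 0 counts over both controls, 13 and 9 counts in the vector-labelled and 4 and 5 counts in the ELK3-labelled libraries. Against a floor of 3 counts over the control group it was at least 5.86-fold and at least 1.80-fold higher. The higher call in ELK3-labelled libraries (adjusted p = 0.0219) ended without control replicate 1 (0.126), control replicate 2 (0.121) or vector-labelled replicate 2 (0.0503), and with DESeq2 (0.0545). Between plasmid groups, COL7A1 was called lower in the ELK3-labelled libraries (-1.29 ± 0.56, adjusted p = 0.0472), which ended without replicate 2 of either plasmid group (0.379 for the vector-labelled and 0.456 for the ELK3-labelled one) and with DESeq2, limma-voom or library totals (0.174, 0.0888 and 0.0510). It was -2.12 without ELK3-labelled replicate 1 and -0.57 without ELK3-labelled replicate 2. COL10A1 was called lower there (-1.66 ± 0.62, adjusted p = 0.0212), which ended without vector-labelled replicate 2 (0.103), with DESeq2 (0.197) and with no filter (0.0510). COL8A1 had -0.53 ± 0.34 (adjusted p = 0.181) and was called lower without vector-labelled replicate 1 (-0.94, adjusted p = 0.0477).

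**Figure D2:**
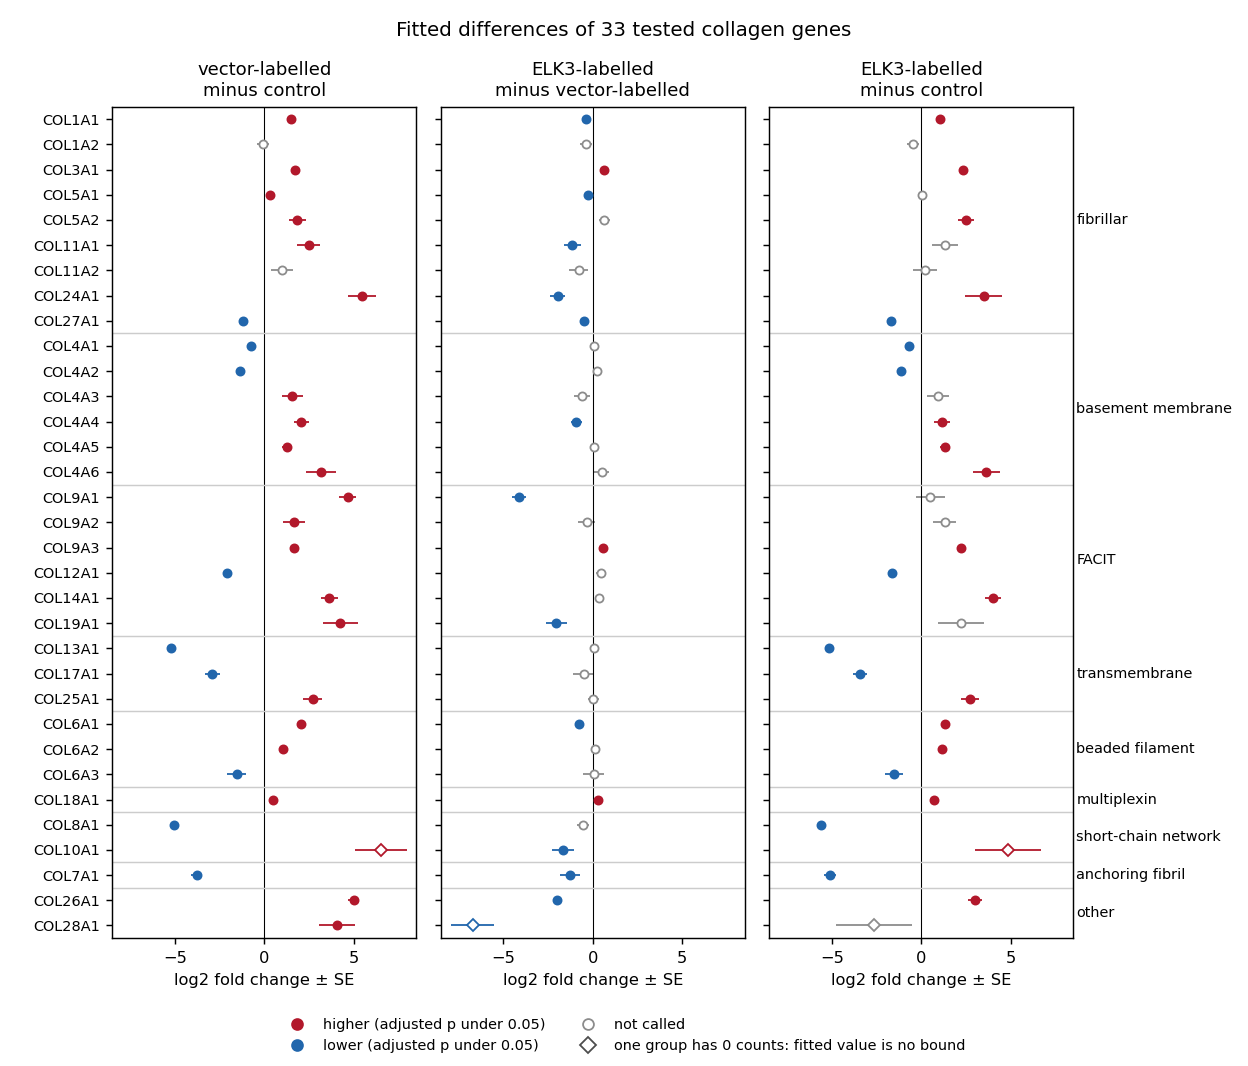
Log2 fold changes with their SE for the 33 tested collagens in the 3 comparisons, coloured by call; diamonds mark comparisons in which a group has 0 counts. The left and right panels share the control libraries and the middle panel sets the plasmid groups against each other, where 17 genes are not called.

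All 6 type IV genes were tested, and 4 rose and 2 fell in the vector-labelled libraries (all genes: 37% higher, 35.3% lower). They are arranged in pairs that start head to head and are transcribed away from each other. Both members of each pair rose or both fell in the vector-labelled libraries. COL4A3 passed the filter through those same libraries, and COL4A4 and COL4A6 through the plasmid groups, with no control library at the filter level. The agreement of these pairs there, and the count of rises, are therefore partly set by the filter. In the ELK3-labelled libraries 3 were higher than in controls, 2 lower and COL4A3 was not called (all genes: 31.8% higher, 30.8% lower). COL4A1 and COL4A2, which together form the usual basement membrane network, lie on chromosome 13, COL4A1 from 110148963 to 110307233 on the minus strand and COL4A2 from 110305812 to 110513209 on the plus strand (GENCODE 29, GRCh38). The gene models overlap at their starts there, and whether counting used strand is not given in the sources used here. In the RefSeq promoter table (GRCh38.p14), 126 bases separate their starts, and those bases are shown because both genes read away from them. For COL4A4 with COL4A3 (418 bases apart on chromosome 2) and COL4A6 with COL4A5 (379 bases apart on chromosome X), the 250 bases next to the plus-strand gene are shown. Capitals mark CCAAT and GGGCGG, searched on both strands, and in these runs no match overlaps another. Each run is 5′ to 3′ on the plus strand, at chr13:110307158-110307283, chr2:227164374-227164623 and chrX:108439588-108439837.
COL4A1/COL4A2: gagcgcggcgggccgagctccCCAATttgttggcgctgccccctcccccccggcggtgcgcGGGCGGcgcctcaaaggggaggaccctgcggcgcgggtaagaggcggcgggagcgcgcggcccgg
COL4A4/COL4A3: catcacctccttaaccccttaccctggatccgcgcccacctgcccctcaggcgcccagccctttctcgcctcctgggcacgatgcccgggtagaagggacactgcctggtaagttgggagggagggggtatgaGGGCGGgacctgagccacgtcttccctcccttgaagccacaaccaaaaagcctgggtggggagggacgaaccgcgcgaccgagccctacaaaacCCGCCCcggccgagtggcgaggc
COL4A6/COL4A5: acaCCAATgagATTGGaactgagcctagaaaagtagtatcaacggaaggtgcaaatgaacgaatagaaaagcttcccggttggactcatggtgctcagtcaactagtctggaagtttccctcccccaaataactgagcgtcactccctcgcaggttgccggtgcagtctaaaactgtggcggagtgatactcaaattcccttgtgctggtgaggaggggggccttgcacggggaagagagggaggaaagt

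The first run holds 1 CCAAT and 1 GGGCGG, the second 2 GGGCGG and no CCAAT, and the third 2 CCAAT and no GGGCGG. Over windows of 250 bases before to 50 after the start, CCAAT was found in 10 of the 32 collagen genes with a window, and in 35.7% of 27305 windows of all genes. GGGCGG was found in 18 of the 32 and in 44.6% of all windows. The ETS sequence CCGGAA was found in 0 of the 32 and in 17.6% of all windows, and the CArG box in 0 of the 32 and in 1.3%. This says only that those letters are not in these windows.

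COL4A1 had 53.1 and 53.8 CPM in controls, 29.2 and 35.4 CPM in vector-labelled and 35.1 and 31.7 CPM in ELK3-labelled libraries. COL4A2 had 159 and 125 CPM in controls, 52.9 and 59.6 CPM in vector-labelled and 65.5 and 64.2 CPM in ELK3-labelled libraries. Both chains were lower in both plasmid groups. COL4A1 had log2 fold changes of -0.74 ± 0.13 and -0.68 ± 0.13 (adjusted p = 6.49e-06 and 1.57e-05), COL4A2 of -1.34 ± 0.11 and -1.13 ± 0.11 (adjusted p = 6.95e-13 and 2.70e-11). Between the plasmid groups neither was called (COL4A1 0.05 ± 0.13, COL4A2 0.21 ± 0.11, adjusted p = 0.748 and 0.106), although COL4A2 was called higher with no filter (0.27, adjusted p = 0.0299).

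The other type IV pairs encode the chains of the kidney glomerulus, lens and smooth muscle, and they rose in the vector-labelled libraries. COL4A4 had 1.05 and 1.94 CPM in controls, 6.61 and 5.80 CPM in vector-labelled and 3.18 and 3.40 CPM in ELK3-labelled libraries, with groups that did not overlap (2.06 ± 0.42, adjusted p = 4.73e-05, against controls). Its partner COL4A3 had 0.836 and 0.8601 CPM in controls, 2.35 and 2.80 CPM in vector-labelled and 1.59 and 1.70 CPM in ELK3-labelled libraries (1.57 ± 0.58, adjusted p = 0.0165). In the ELK3-labelled libraries COL4A4 was still above the controls (1.14 ± 0.45, adjusted p = 0.0266) and COL4A3 was not called (0.95 ± 0.60, adjusted p = 0.173). COL4A5 had 4.18 and 3.44 CPM in controls, 8.52 and 10.0 CPM in vector-labelled and 10.2 and 9.04 CPM in ELK3-labelled libraries (1.26 ± 0.29 and 1.32 ± 0.28, adjusted p = 0.00027 and 0.000135). COL4A6 had 1 count in each control, 11 and 13 counts in vector-labelled and 21 and 24 counts in ELK3-labelled libraries. Its ratios to the controls were 9.59 (95% counting interval 2.38 to 83.7) and 13.5 (3.53 to 115). The plasmid groups overlapped for COL4A5 and COL4A6. COL4A4 was lower in ELK3-labelled than in vector-labelled libraries (-0.91 ± 0.32, adjusted p = 0.0138).

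Some of these calls did not hold in every setting. The COL4A3 call ended without control replicate 1 (0.0914), control replicate 2 (0.0831) or vector-labelled replicate 2 (0.0882) and with DESeq2 (0.0852). The COL4A4 call between plasmid groups ended without vector-labelled replicate 1 (0.121), ELK3-labelled replicate 1 (0.0599) or ELK3-labelled replicate 2 (0.0606) and with DESeq2 (0.126), and its call between ELK3-labelled libraries and controls without control replicate 1 (0.249) or ELK3-labelled replicate 2 (0.0991) and with DESeq2 (0.106).

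**Figure D3:**
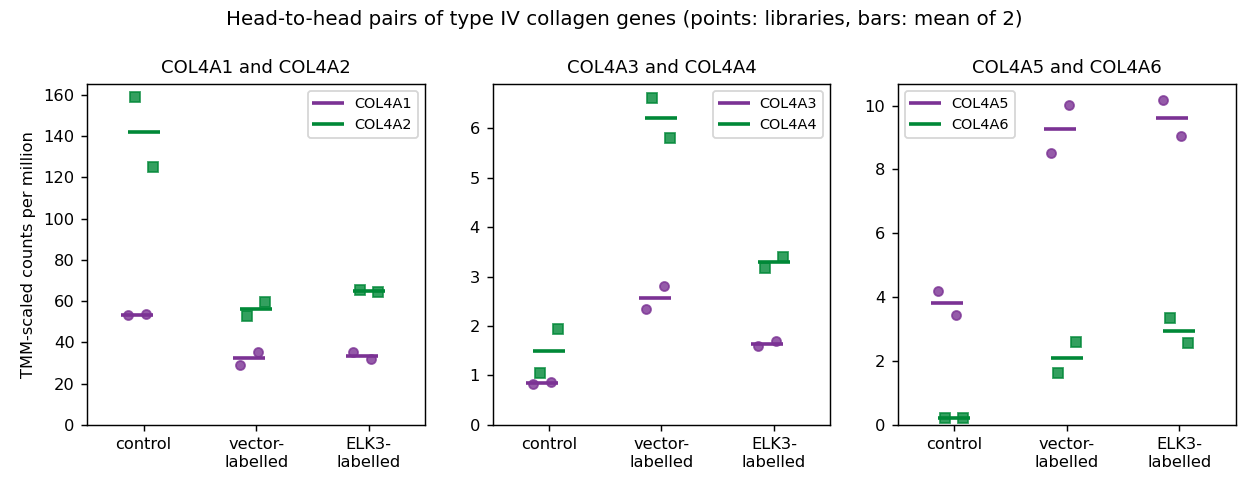
TMM-scaled CPM of the 3 type IV pairs in each library, on linear axes from 0. COL4A1 and COL4A2 are highest in the controls, and the other 4 genes are lowest there.

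Of 11 fibrillar genes 9 were tested, and 6 rose, 1 fell and 2 were not called in the vector-labelled libraries (all genes: 37% higher, 35.3% lower). In the ELK3-labelled libraries 4 were higher than in controls, 1 lower and 4 not called (all genes: 31.8% higher, 30.8% lower). COL24A1 among them passed the filter through the vector-labelled libraries. COL5A2, COL11A1 and COL11A2 passed it through the plasmid groups, with no control library at that level, so these counts are partly set by the filter. COL3A1, the collagen of elastic tissues such as vessels and gut, had 5.23 and 4.09 CPM in controls, 16.0 and 14.8 CPM in vector-labelled and 23.7 and 24.2 CPM in ELK3-labelled libraries. The 3 groups did not overlap, and each step was called (1.73 ± 0.24 from controls to vector-labelled and 0.63 ± 0.17 from there to ELK3-labelled, adjusted p = 9.79e-08 and 0.00143). COL5A2, which helps nucleate type I fibrils, lies 19.1 kb from COL3A1 on chromosome 2, with the genes reading towards each other. It had 1.05 and 1.08 CPM in controls, 4.70 and 2.80 CPM in vector-labelled and 6.52 and 5.74 CPM in ELK3-labelled libraries (1.84 ± 0.49 and 2.5 ± 0.44 against controls, adjusted p = 0.0012 and 9.06e-06). COL1A1, a chain of the type I collagen of bone, skin and tendon, had 11.5 and 15.7 CPM in controls, 41.4 and 32.8 CPM in vector-labelled and 32.4 and 25.3 CPM in ELK3-labelled libraries. Both plasmid groups were above the controls (1.46 ± 0.18 and 1.07 ± 0.18, adjusted p = 1.02e-08 and 5.52e-06). Its partner chain COL1A2 had 5.44 and 4.73 CPM in controls, 5.73 and 3.60 CPM in vector-labelled and 3.66 and 3.61 CPM in ELK3-labelled libraries, and was called in no comparison (adjusted p = 0.823, 0.301 and 0.214). The ELK3-labelled libraries lay below both controls and the vector-labelled ones overlapped them. Whether the chains of type I differ in their change was not tested.

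COL27A1, a fibrillar collagen of cartilage, was the exception that fell. It had 74.0 and 75.5 CPM in controls, 33.6 and 32.0 CPM in vector-labelled and 22.9 and 23.8 CPM in ELK3-labelled libraries. Its groups stood apart in that order (-1.18 ± 0.12, then -0.49 ± 0.13, adjusted p = 8.81e-11 and 0.00141). COL5A1, the main chain of type V collagen, was nearly level, with 65.0 and 56.6 CPM in controls, 80.9 and 69.0 CPM in vector-labelled and 62.0 and 65.3 CPM in ELK3-labelled libraries. Its calls were small (0.31 ± 0.11 against controls and -0.24 ± 0.10 between plasmid groups, adjusted p = 0.0136 and 0.0477). COL24A1, a minor fibrillar collagen of developing bone, had 0 and 0.215 CPM in controls, 4.11 and 7.20 CPM in vector-labelled and 1.27 and 1.49 CPM in ELK3-labelled libraries. With 1 count over both controls, its ratio was 51.1 (95% counting interval 8.86 to 2051) in vector-labelled and 13.2 (2.14 to 546) in ELK3-labelled libraries, and it fell between the plasmid groups (-1.96 ± 0.42, adjusted p = 0.000156). COL11A1, of cartilage fibrils, had 1 and 4 counts in controls, 22 and 14 in vector-labelled and 12 and 9 in ELK3-labelled libraries. It rose in the vector-labelled libraries (2.47 ± 0.66) and was lower in the ELK3-labelled ones (-1.15 ± 0.48, adjusted p = 0.0367). COL11A2 had 4 to 19 counts per library and was not called. COL2A1 and COL5A3, with 0 to 3 counts per library, were not tested.

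Several fibrillar calls rest on single libraries. The COL5A1 call against controls ended without control replicate 2 (0.210) or vector-labelled replicate 1 (0.266) and with DESeq2 (0.0705), and the COL5A2 call in the same comparison without vector-labelled replicate 1 (0.0534). Between plasmid groups, COL1A1 (-0.39 ± 0.15, adjusted p = 0.0249) lost its call without vector-labelled replicate 1 (0.419), without ELK3-labelled replicate 2 (0.383) and with DESeq2 (0.153). COL5A1 lost it there without vector-labelled replicate 1 (0.532) or either ELK3-labelled replicate (0.205 and 0.0959), with DESeq2 (0.172), library totals (0.0816), no filter (0.165) and the replicate block (0.0650). COL11A1 lost it without either vector-labelled replicate (0.224 and 0.0930) or ELK3-labelled replicate 2 (0.390), with DESeq2 (0.236), no filter (0.0611) and the replicate block (0.0572). Without vector-labelled replicate 1, COL5A2 was called higher between plasmid groups (1.12, adjusted p = 0.0356) and COL11A2 was called higher against controls (1.68, adjusted p = 0.0274) and lower between plasmid groups (-1.47, adjusted p = 0.0422). COL24A1 between ELK3-labelled libraries and controls lost its call without control replicate 1 (0.0528), and without control replicate 2 its control count is 0. The COL11A1 difference between vector-labelled libraries and controls was 1.78 without control replicate 1 and 3.72 without control replicate 2.

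Fibroblast markers were looked at beside the fibrillar genes, in bulk RNA in which fewer cells of a type and less RNA per cell cannot be told apart. Of 10 markers, 6 were tested, and 3 rose in vector-labelled libraries and 3 were not called (all genes: 37% higher, 35.3% lower). The summed level of all 10 was 44.7 to 45.0 CPM in controls, 113 to 117 in vector-labelled and 114 to 123 in ELK3-labelled libraries. Most of this difference from controls was FBLN1 (mean 8.92 CPM in controls, 76.3 CPM in vector-labelled and 83.0 CPM in ELK3-labelled libraries). In ELK3-labelled libraries 3 of the 6 tested markers were higher than in controls, 1 was lower and 2 were not called (all genes: 31.8% higher, 30.8% lower). FBLN1, a matrix glycoprotein, rose (3.09 ± 0.15 and 3.22 ± 0.15; 8.16 and 9.68 CPM, 73.2 and 79.4 CPM and 84.6 and 81.4 CPM in the same order). LUM, the proteoglycan lumican, rose (2.0 ± 0.45 and 1.34 ± 0.47, adjusted p = 0.000203 and 0.0141), as did PRRX1, a mesenchymal transcription factor (2.67 ± 0.83 and 3.94 ± 0.68, adjusted p = 0.0048 and 6.80e-06). DCN, the collagen-binding proteoglycan decorin, had 24.9 and 25.2 CPM, 24.2 and 18.4 CPM and 20.04 and 17.3 CPM and was lower in ELK3-labelled libraries than in controls (-0.43 ± 0.17, adjusted p = 0.024). PDGFRB and THY1 were not called in these comparisons, and PDGFRA, FAP, POSTN and TCF21, at most 1.60 CPM in every library, were not tested. None of the 10 was at 0 in all libraries, and their part in the fibrillar values was not tested.

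**Figure D4:**
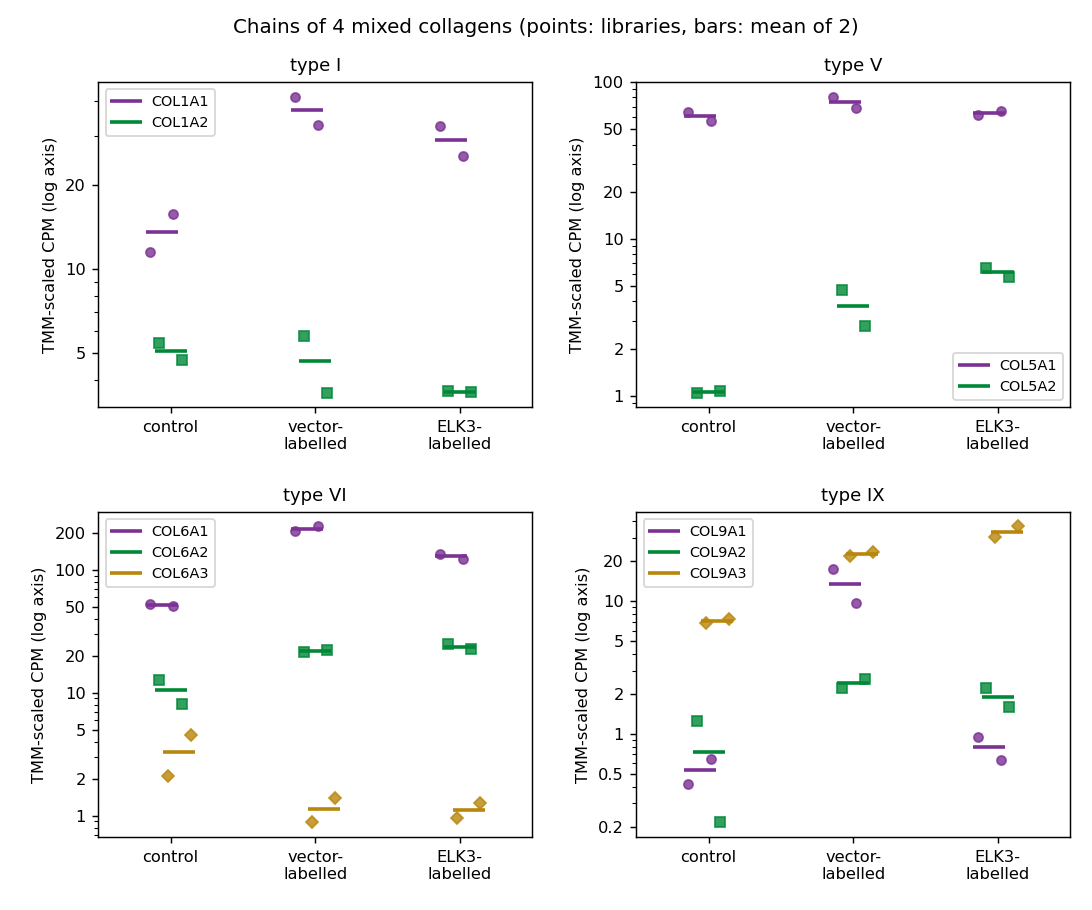
TMM-scaled CPM, on log axes, of the chains of types I, V, VI and IX in each library, with the mean of 2 as a bar. COL1A1 is higher in both plasmid groups, the vector-labelled libraries overlap the controls for COL1A2, COL6A3 is lower where COL6A1 and COL6A2 are higher, and COL9A1 is high in the vector-labelled libraries while COL9A3 is highest in the ELK3-labelled ones.

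Type VI collagen is a heterotrimer that forms beaded filaments around cells. COL6A1 and COL6A2 were higher in both plasmid groups than in controls, while COL6A3, which passed the filter through the controls, was called lower. COL6A1 had 53.1 and 51.0 CPM in controls, 209 and 226 CPM in vector-labelled and 134 and 124 CPM in ELK3-labelled libraries, in groups that did not overlap. It rose against controls (2.06 ± 0.10) and was lower in ELK3-labelled than in vector-labelled libraries (-0.76 ± 0.09, adjusted p = 6.49e-19 and 4.09e-09). COL6A2, 93.0 kb downstream on chromosome 21, had 12.8 and 8.17 CPM in controls, 21.6 and 22.4 CPM in vector-labelled and 25.0 and 22.5 CPM in ELK3-labelled libraries. It was higher in both plasmid groups (1.07 ± 0.20 and 1.17 ± 0.19, adjusted p = 1.64e-05 and 2.92e-06) and not called between them (adjusted p = 0.595). COL6A3, the long chain that completes the trimer, had 2.09 and 4.52 CPM in controls, 0.881 and 1.40 CPM in vector-labelled and 0.954 and 1.28 CPM in ELK3-labelled libraries (-1.56 ± 0.54 and -1.51 ± 0.51, adjusted p = 0.0107 and 0.00989). Its call in the vector-labelled libraries ended without control replicate 2 (-0.93, adjusted p = 0.303) or vector-labelled replicate 1 (0.127) and with DESeq2 (0.0709). Its call in the ELK3-labelled libraries ended without control replicate 2 (-0.87, adjusted p = 0.337) or ELK3-labelled replicate 1 (0.0670) and with DESeq2 (0.0741). COL6A5 and COL6A6, at 0 to 14 counts per library, were not tested.

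Of 10 FACIT genes 6 were tested, and 5 rose and 1 fell in the vector-labelled libraries (all genes: 37% higher, 35.3% lower). No control library reached the filter level for COL9A1, COL19A1, COL14A1 or COL9A2, so the count of rises is partly set by the filter. In the ELK3-labelled libraries 2 were higher than in controls, 1 lower and 3 not called (all genes: 31.8% higher, 30.8% lower). COL9A1, a chain of the type IX collagen of cartilage and vitreous, had 0.418 and 0.645 CPM in controls, 17.5 and 9.605 CPM in vector-labelled and 0.954 and 0.638 CPM in ELK3-labelled libraries. It was high in the vector-labelled libraries alone of the 3 groups (4.65 ± 0.48 against controls and -4.14 ± 0.39 between plasmid groups, adjusted p = 1.48e-10 and 4.64e-11), and the ELK3-labelled libraries overlapped the controls (0.52 ± 0.81, adjusted p = 0.595). COL19A1, a FACIT collagen of developing muscle and brain, lies 5.1 kb from COL9A1 on chromosome 6, and the genes read towards each other. It had 1 and 0 counts in controls, 13 and 15 counts in vector-labelled and 2 and 7 counts in ELK3-labelled libraries. Its ratio of vector-labelled libraries to controls was 22.4 (95% counting interval 3.70 to 915), and it was lower in ELK3-labelled libraries (-2.03 ± 0.60, adjusted p = 0.00422). This call was lost without vector-labelled replicate 2 (0.0991), without ELK3-labelled replicate 1 (0.0678) and with DESeq2 (0.0649), and its difference was -2.82 without ELK3-labelled replicate 2. Without control replicate 1 its control count is 0. Both COL9A1 and COL19A1 passed the filter through the vector-labelled libraries.

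COL9A3, another type IX chain, rose in steps, with 6.90 and 7.31 CPM in controls, 22.0 and 23.6 CPM in vector-labelled and 30.4 and 36.6 CPM in ELK3-labelled libraries. Its groups did not overlap (1.68 ± 0.20 and then 0.57 ± 0.15, adjusted p = 7.46e-09 and 0.00129), although the second step lost its call without ELK3-labelled replicate 2 (0.0617). COL9A2, the remaining chain, had 1.25 and 0.215 CPM in controls, 2.20 and 2.60 CPM in vector-labelled and 2.23 and 1.59 CPM in ELK3-labelled libraries. Its call against controls (1.65 ± 0.64, adjusted p = 0.0212) ended without control replicate 2 (0.295), without either vector-labelled replicate (0.0537 and 0.0896) and with DESeq2 (0.0869), and the difference was 3.34 without control replicate 1 and 0.89 without control replicate 2. In ELK3-labelled libraries it had 1.3 ± 0.65 (adjusted p = 0.0781) and was called higher without control replicate 1 (3.0, adjusted p = 0.0232) and with library totals (1.46, adjusted p = 0.0486). Of 6 listed chondrocyte genes none passed the filter, HAPLN1 was at 0 in every library, and their summed level was 1.72 to 3.08 CPM.

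COL14A1, which binds fibrils in skin and tendon, had 0.418 and 0.645 CPM in controls, 6.90 and 6.60 CPM in vector-labelled and 9.38 and 8.19 CPM in ELK3-labelled libraries. Both plasmid groups rose (3.62 ± 0.49 and 3.99 ± 0.45, adjusted p = 4.67e-08 and 2.31e-09). COL12A1, the FACIT collagen of tendon and stressed matrix, fell, from 18.8 and 20.6 CPM in controls to 4.99 and 4.20 CPM in vector-labelled and 5.88 and 6.70 CPM in ELK3-labelled libraries (-2.08 ± 0.24 and -1.63 ± 0.22, adjusted p = 2.00e-09 and 5.20e-08). COL16A1, COL20A1, COL21A1 and COL22A1 were not tested, at 0 to 12 counts per library. Among them COL21A1 had 1 and 0 counts in controls, 12 and 6 in vector-labelled and 0 and 1 in ELK3-labelled libraries, ratios of 14.4 (95% counting interval 2.27 to 599) and 23.9 (3.78 to 997) between the vector-labelled libraries and the controls or the ELK3-labelled ones.

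COL26A1, an emilin-related secreted collagen, was highest in the vector-labelled libraries. It had 0.418 and 1.72 CPM in controls, 36.4 and 32.6 CPM in vector-labelled and 7.16 and 9.67 CPM in ELK3-labelled libraries. The groups did not overlap, and COL26A1 rose against controls (5.0 ± 0.31) and was lower in ELK3-labelled than in vector-labelled libraries (-2.01 ± 0.19, adjusted p = 7.79e-16 and 4.73e-11). The difference between ELK3-labelled libraries and controls was 2.99 ± 0.39. COL26A1 passed the filter through the plasmid groups, with no control library at that level. Against controls the differences were 4.3 and 2.31 without control replicate 1, and 6.29 and 4.29 without control replicate 2. COL28A1, a collagen of peripheral nerve, had 1 and 0 counts in controls, 15 and 10 counts in vector-labelled and 0 counts in both ELK3-labelled libraries. It was at least 11.1-fold lower in ELK3-labelled than in vector-labelled libraries, against a floor of 3 counts over the group (adjusted p = 1.53e-05), and its ratio of vector-labelled libraries to controls was 19.98 (95% counting interval 3.27 to 820). Without control replicate 1 its control count is 0. COL18A1, the multiplexin from which endostatin is cut, had 31.6 and 43.2 CPM in controls, 49.1 and 55.0 CPM in vector-labelled and 62.7 and 62.2 CPM in ELK3-labelled libraries. Its levels rose in that order without overlap (0.47 ± 0.13 and 0.27 ± 0.12, adjusted p = 0.00175 and 0.0466). The first COL18A1 call ended without control replicate 1 (0.149). The second ended without vector-labelled replicate 1 (0.3) or either ELK3-labelled replicate (0.109 and 0.113), with DESeq2 (0.197), the filter of 10 CPM (0.133) and the replicate block (0.0518). COL15A1 and COL8A2, at 0 to 8 counts per library, were not tested.

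The machinery around the collagens was described from lists of its genes, to be read against the shares of all genes called, which were 37% higher and 35.3% lower in vector-labelled libraries and 31.8% higher and 30.8% lower in ELK3-labelled libraries against controls. Of 18 genes that hydroxylate and fold procollagen, 17 were tested, and in the vector-labelled libraries 6 rose and 10 fell (median log2 fold change -0.61); in the ELK3-labelled libraries 5 were higher and 10 lower than in controls (-0.72). SERPINH1, the collagen chaperone HSP47, had 219 and 214 CPM in controls, 50.2 and 47.8 CPM in vector-labelled and 129 and 133 CPM in ELK3-labelled libraries. It fell against controls and was higher in ELK3-labelled than in vector-labelled libraries (-2.14 ± 0.10 and then 1.42 ± 0.10, adjusted p = 9.43e-20 and 2.38e-14). PLOD3, a lysyl hydroxylase, had a log2 fold change of -2.03 ± 0.12 in vector-labelled libraries, and FKBP14, a prolyl isomerase of the endoplasmic reticulum, 2.12 ± 0.12. FKBP14 then fell by 1.79 between plasmid groups. FKBP10, another such isomerase, was higher in both plasmid groups (2.78 ± 0.18 and 3.5 ± 0.17).

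Of 6 cross-linking enzymes, all tested, 0 rose and 5 fell in each comparison with controls (median -2.41 and -1.74), where 35.3% and 30.8% of all genes were called lower. TGM2, a transglutaminase, went from 339 and 299 CPM in controls to 19.4 and 16.4 CPM in vector-labelled and 17.2 and 15.5 CPM in ELK3-labelled libraries (-4.14 ± 0.12, adjusted p = 2.83e-25). The lysyl oxidase genes LOXL2 and LOX had log2 fold changes of -2.69 ± 0.12 and -2.5 ± 0.26 in the vector-labelled libraries, and LOXL1 was the gene not called (0.32 ± 0.17). Between the plasmid groups 2 of the 6 were higher and 1 lower (all genes: 30% and 29.6%). Of 8 tested collagen receptors 3 fell and 1 rose in vector-labelled libraries (median -0.25; all genes: 35.3% lower, 37% higher). The integrin subunit ITGA2, which binds collagen as a dimer with ITGB1, went from 115 and 110.3 CPM in controls to 5.58 and 4.20 CPM in vector-labelled and 12.4 and 12.5 CPM in ELK3-labelled libraries (-4.49 ± 0.16, adjusted p = 1.70e-22), and ITGB1 had -1.93 ± 0.09.

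Of 13 genes of procollagen export, 2 rose, 5 fell and 6 were not called in vector-labelled libraries (median -0.19), where 37% of all genes rose and 35.3% fell. The lists that follow are for the same comparison. CREB3L1, a membrane-bound transcription factor that drives secretory and collagen genes in bone, went from 62.1 and 58.3 CPM in controls to 4.26 and 4.40 CPM in vector-labelled and 2.07 and 1.70 CPM in ELK3-labelled libraries (-3.79 ± 0.19, adjusted p = 2.19e-18). Of 7 tested genes that trim procollagen, 4 rose and 1 fell (median 0.57), and ADAMTS2, the amino-propeptidase of fibrillar procollagens, had 3.0 ± 0.42. Among 6 tested collagen-degrading proteases 2 rose and 3 fell (median -0.63), with MMP14, the membrane-anchored collagenase, at -3.84 ± 0.24 and MMP2, a gelatinase that MMP14 activates, at 3.31 ± 0.50. Among 10 tested matrix proteins that bind collagen 4 rose and 2 fell (median 0.34). PXDN, the peroxidase that cross-links type IV collagen, fell, with 241 and 238 CPM in controls, 34.2 and 40.6 CPM in vector-labelled and 74.7 and 70.4 CPM in ELK3-labelled libraries (-2.69 ± 0.10, adjusted p = 1.35e-21). NID1, the basement membrane linker nidogen, rose (2.14 ± 0.16, adjusted p = 5.37e-14), as did the collagen-binding protein SPARC (1.59 ± 0.13, adjusted p = 8.26e-13).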

How the data were processed

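Reads were counted in 6 libraries made from 500 ng of total RNA with a Lexogen Quant-Seq kit, per the labels. The deposited values are raw counts per gene symbol, with no scaling. The submitters' processing notes name Bowtie2, edgeR and hg19 without versions. The counting tool, annotation and strand setting are not given in the sources used here. Each file holds 25737 lines and 24462 symbols, and lines of 1 symbol were summed (7 lines for COL11A2).

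The 15386 genes that passed filterByExpr were scaled by TMM. All 6 libraries entered a robust quasi-likelihood fit in edgeR 4.0.16 (R 4.3.3), with 1 coefficient for each group and 3 residual degrees of freedom. Two-sided p-values were Benjamini-Hochberg adjusted across these genes, and 0.05 was the threshold. Values after ± are SE of log2 fold changes. A count of 0 allows up to 3 counts at 95% confidence, or 0.329 to 0.614 CPM in a library. Floors and exact intervals cover counting error only. The fit was also tested on simulated data. Alternatives used DESeq2 1.42.0, limma 3.58.1 (voom), other scalings and filters, a replicate block and fewer libraries. Tables and plots were made in Python 3.11.15 with pandas 2.3.3 and matplotlib 3.10.9.

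Every collagen symbol is accounted for, with values per library where the highest group mean reached 5 CPM and for partners in pairs and trimers. Up to 4 genes of a pathway list with the smallest p in a comparison were named. The cross-linking list departed from this, as LOX and LOXL1 were named while LOXL3 and LOXL4 had smaller p in vector-labelled libraries. Their log2 fold changes there were -1.43 (LOXL3) and -2.31 (LOXL4). Single marker genes (ALB, HAPLN1) and the untested COL21A1 were singled out after their values were seen. Members, marker lists and pathway lists were chosen with earlier results of these data known.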

Additional observations from a re-analysis of the deposited data

How the results depend on the processing

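Of the calls made, 25 of 31 between vector-labelled libraries and controls, 7 of 16 between plasmid groups and 20 of 24 between ELK3-labelled libraries and controls held under all 15 alternatives in which the gene was tested, and no called value changed sign. With the filter of 10 CPM in 2 libraries, 16 collagens were tested, and 9 were higher in vector-labelled libraries than in controls, 6 lower in ELK3-labelled than in vector-labelled libraries and 8 higher in ELK3-labelled libraries than in controls. DESeq2 called 6 lower between plasmid groups. Leaving out 1 library gave 18 to 21 higher and 8 to 9 lower (vector-labelled against controls), 1 to 3 higher and 7 to 14 lower (plasmid groups), and 13 to 14 higher and 8 to 9 lower (ELK3-labelled against controls). Scaling by library totals moved the median of all genes from 0.05 to 0.18 and from 0.02 to 0.18 against controls.

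Values that changed sign belonged to differences that were not called, and the cause was not tested. Without 1 library, the log2 fold change between vector-labelled libraries and controls ran from -0.01 to 1.68 for COL11A2 and from -0.5 to 0.16 for COL1A2 (0.04 with library totals). Between plasmid groups it ran from -1.47 to 0.21 for COL11A2, -0.27 to 0.83 for COL13A1, -0.64 to 0.02 for COL1A2, -0.38 to 0.51 for COL25A1, -0.08 to 0.2 for COL4A1, -0.06 to 0.17 for COL4A5 and -0.28 to 0.38 for COL6A3. It was -0.01 with the filter of 10 CPM for COL4A1 and for COL4A5, and with DESeq2 for COL25A1. Between ELK3-labelled libraries and controls it ran from -0.15 to 0.67 for COL11A2, -3.57 to 0 for COL28A1 and -0.04 to 0.17 for COL5A1.

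No effect shared by same-numbered libraries was seen, as their deviations correlated across genes at -0.056, 0.033 and -0.00066. With 2 libraries per group this cannot show whether same-numbered samples were handled together. With a replicate block, 22 collagens were higher and 9 lower (vector-labelled against controls), 2 higher and 11 lower (plasmid groups), and 15 higher and 9 lower (ELK3-labelled against controls). Between plasmid groups the block gave -0.02 for COL25A1 and -0.06 for COL6A3. Totals of 4884483 to 9131214 counts leave the 11 untested collagens at 14 counts or fewer per library.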

Other observations

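The symbols that the naming rule left out were 2 pseudogenes, 3 antisense symbols and COL4A3BP, which encodes a ceramide transporter and no collagen. The pseudogene COL6A4P2 held 17 and 13 counts in control, 44 and 21 in vector-labelled, and 18 and 25 in ELK3-labelled libraries. COL6A4P1 had 1 to 3 counts per library. The antisense symbols COL4A2-AS1, COL18A1-AS1 and COL18A1-AS2 had 0 to 4.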
